A study of Mus musculus with 8 samples.

Results

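The mouse Zfp genes with a 3-digit number were followed through the aortas of mice given colchicine and of mice given vehicle. The table held 321 genes whose symbol was Zfp and 3 digits, among 22063 genes in all. A gene was taken when its mean over the 8 libraries was at least 1 TPM (a level scaled to transcript length and to the library's total), and 259 genes met this, under 258 symbols because Zfp120 had 2 identifiers. Members were thus chosen by their mean level over all libraries and not by the difference between the groups. The other 62 lay below that level. Just inside were Zfp442 at 1.07 TPM, Zfp712 at 1.09 TPM and Zfp808 at 1.10 TPM, and just outside were Zfp575 at 0.989 TPM, Zfp781 at 0.974 TPM and Zfp454 at 0.966 TPM.

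The data came from 8 RNA sequencing libraries of the aorta of male C57BL/6J mice. The colchicine group, 4 libraries, came from mice that received colchicine by gavage at 200 µg per kg per day, and the vehicle group, also 4 libraries, from mice that received saline in the same way. Mice of both groups were 3 weeks old at the start and took beta-aminopropionitrile (BAPN), a lysyl oxidase inhibitor that weakens the aortic wall, in the drinking water at 1 g per kg per day for 3 weeks. Colchicine binds tubulin and blocks microtubule assembly. Aortas without BAPN were not analysed here, and nothing in the labels says whether a library is 1 mouse or a pool. Tests therefore measure the spread between libraries, and in whole tissue fewer cells of a type and less RNA per cell cannot be told apart.

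C2H2 zinc fingers are small folds held by a zinc ion between a pair of cysteines and a pair of histidines, and strings of them read DNA sequence. Many mouse genes of this class also encode a KRAB box, which recruits the corepressor Trim28 and through it the histone methyltransferase Setdb1, heterochromatin protein and DNA methylation. KRAB zinc finger proteins are best known for silencing retroviral elements and for keeping imprints, and many of their genes lie in clusters. Most members have no studied role in the aorta.

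Of the 259 genes, 257 were protein coding in GENCODE M21, and 229 carried the zf-C2H2 label in the deposited table. A search of the 257 proteins translated from that annotation found at least 1 C2H2 finger in 249, with a median of 10 and a maximum of 36 fingers. The core of the KRAB A box was found in 125 proteins with a broad pattern, against 98 with a narrower one. A gene without a match may still encode the box. The median mean level was 5.34 TPM. Zfp207, whose product binds microtubules and kinetochores at mitosis, was highest at 99.7 TPM, and only 4 genes exceeded 50 TPM. Transcripts of the Zfp genes were poorer in G and C than those of the other tested genes, with a median of 45.6% against 50.6%, and their median lengths were 3347 and 3000 bases.

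Library totals were 16.8 to 18.3 M estimated counts in colchicine and 15.4 to 18.5 M in vehicle. The vehicle libraries differed more among themselves. Haemoglobin genes took 0.0914 to 0.318% of counts in colchicine, against 14.9, 0.282, 0.0419 and 6.21% in vehicle 1 to 4. Vehicle 1 also had a scaling factor (TMM) of 0.762, and its summed level of the 259 genes, 1026 TPM, was the lowest. The sums were 3113, 2862, 2547 and 2896 TPM in colchicine 1 to 4, and 1026, 2100, 2444 and 1847 TPM in vehicle 1 to 4, so that the groups did not overlap. Of other lists described below, Zfp genes with 1 or 2 digits overlapped (403 to 498 TPM in colchicine, 294 to 490 TPM in vehicle). Others were apart too, among them imprinted genes (2025 to 2153 TPM in colchicine, 804 to 1861 TPM in vehicle) and the Zbtb family (463 to 545 TPM in colchicine, 142 to 396 TPM in vehicle).

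Smooth muscle markers moved with the same split. Sums in this paragraph are in TPM, while rises and falls are edgeR calls on TMM-scaled counts, described below. By these calls 17.4% of all tested genes rose and 17.0% fell. The 12 genes of that list, Acta2 and Myh11 among them, summed to 32610 to 41519 TPM in colchicine and 5458 to 22641 TPM in vehicle, and 6 of the 12 rose and none fell. Markers of blood and immune cells ran the other way. Of the erythroid list, 0 of 8 tested genes rose and 5 fell (3315 to 10979 TPM in colchicine, 1452 to 310980 TPM in vehicle). Of the neutrophil list, 3 of 4 fell, and its sums were 5.72 to 14.8 TPM in colchicine and 23.7 to 4640 TPM in vehicle. In the platelet list 5 of 7 fell (85.1 to 116 TPM in colchicine, 151 to 1481 TPM in vehicle), and in the macrophage list 6 of 12 fell and 2 rose (550 to 1077 TPM in colchicine, 1048 to 2861 TPM in vehicle). In the lymphocyte list 3 of 7 fell (2.81 to 14.1 TPM in colchicine, 13.3 to 37.9 TPM in vehicle). Fibroblast markers spanned 9717 to 11363 TPM in colchicine and 3243 to 26948 TPM in vehicle (0 of 9 rose, 1 fell). White adipocyte markers spanned 317 to 873 TPM in colchicine and 555 to 2275 TPM in vehicle, and 3 of 7 fell. Brown adipocyte markers spanned 84.1 to 165 TPM in colchicine and 31.2 to 347 TPM in vehicle, with no call among 6 genes. Endothelial markers spanned 1125 to 1732 TPM in colchicine and 557 to 1095 TPM in vehicle, with 3 of 10 raised and 2 lowered. On the scaled counts, though, the median log2 change of the endothelial list was -0.29, and 4 of its 10 estimates were positive. TPM is a share of the library's total, part of which was haemoglobin in vehicle 1 and 4. No gene of these marker lists was at 0 in all libraries of a group, and the part of cell content in the results below was not tested.

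More Zfp genes were raised than lowered in colchicine aortas. All 259 passed the filter on low counts, and edgeR's quasi-likelihood test with Benjamini-Hochberg adjustment over 13431 genes put 101 higher and 7 lower in colchicine at an adjusted p under 0.05. Raised members were 39.0% of the 259, where 17.4% of all tested genes were raised. Lowered members were 2.70%, where 17.0% of all tested genes were lowered. The median log2 change of colchicine minus vehicle was 0.57 over the Zfp genes and -0.03 over all tested genes, and 212 of the 259 estimates were positive. The 4 colchicine libraries lay wholly above the 4 vehicle libraries for 125 members (21.1% of all tested genes did so) and wholly below for 11 (17.9%).

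The number raised depended on single libraries. It was 28, 28, 61 and 37 without colchicine 1 to 4 in turn, and the same fits raised 6.81, 6.58, 12.6 and 9.07% of all tested genes. It was 54, 67, 70 and 112 without vehicle 1 to 4 in turn, where 11.2, 14.4, 14.8 and 17.8% of all tested genes rose. The members' median stayed between 0.39 and 0.62 over the 8 fits that left out 1 library, with the lowest value without vehicle 1. Without vehicle 1 and vehicle 4, the libraries richest in haemoglobin, 112 Zfp genes rose and 11 fell, where 20.2% of all tested genes rose and 20.3% fell. Of the 112, 90 were among the 101, and the median was 0.52.

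Genes with a KRAB box match made up most of the raised members. Of the 125 genes with a match, 70 rose and none fell, and their median log2 change was 0.80. Of the 132 genes without one, 31 rose and 7 fell, and the median was 0.17. The same fit raised 17.4% of all tested genes. With the narrower pattern, 53 of 98 rose, none fell and the median was 0.79. Medians were higher for genes whose proteins hold more fingers. In genes with 1 to 4 fingers 7 of 35 rose and the median was 0.13, with 5 to 9 fingers 25 of 77 and 0.46, with 10 to 14 fingers 48 of 89 and 0.75, and with at least 15 fingers 20 of 48 and 0.81. Medians were also higher at lower levels: 38 of 80 rose between 1 and 3 TPM (median 0.84), 38 of 101 between 3 and 10 TPM (median 0.58) and 25 of 78 at 10 TPM or more (median 0.17).

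Base composition moved with these differences. All tested genes were split into 4 bins of equal size by the GC content of a representative transcript. In the bin poorest in G and C (31.9 to 45.7%), 76 of 131 Zfp genes rose and none fell, with a median log2 change of 0.84. Of all tested genes in that bin 33.6% rose and 8.35% fell, and the median of those that were not members was 0.36. In the second bin 17 of 49 Zfp genes rose and 1 fell (median 0.46), where 20.9% of all its genes rose and 13.2% fell (median of the others 0.03). In the third bin 6 of 33 rose and 2 fell (median 0.24), where 9.33% rose and 21.0% fell (median of the others -0.17). In the bin richest in G and C (55.2 to 72.9%), 2 of 45 rose and 4 fell (median -0.01), where 5.96% rose and 25.4% fell (median of the others -0.27). The Zfp genes' median lay above that of the other genes in each bin, by less than the step of the other genes between the first and the last bin.

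**Figure D1:**
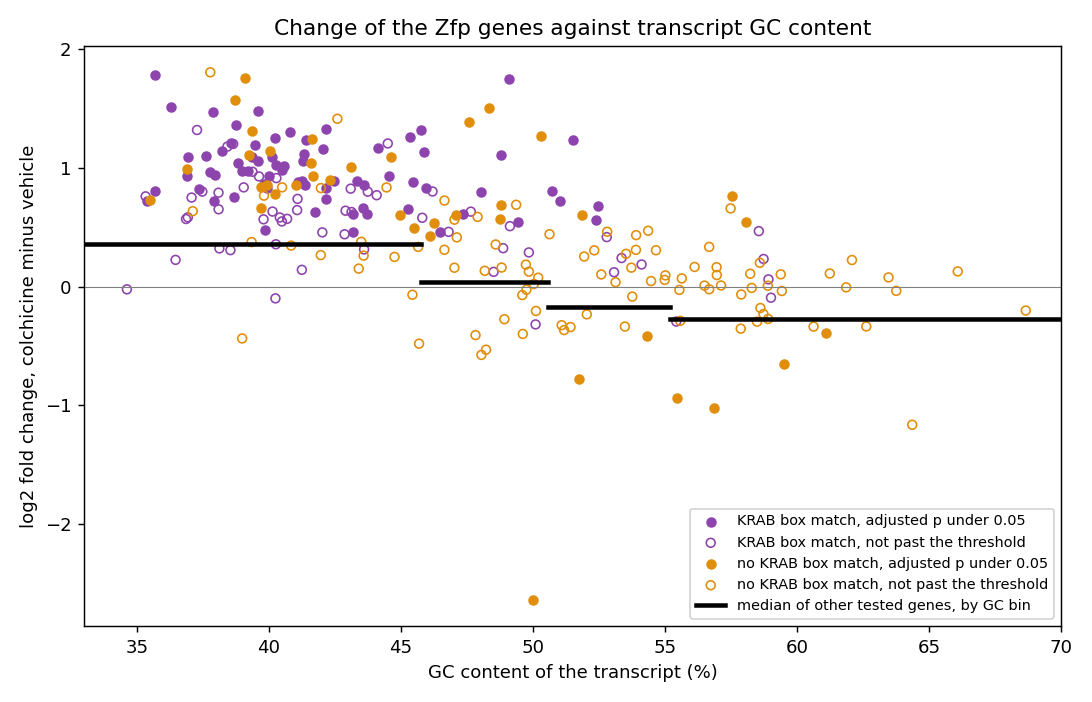
Log2 fold change (colchicine minus vehicle, vertical) of each Zfp gene against the GC content of its transcript in percent (horizontal), with filled points for an adjusted p under 0.05. Genes with a KRAB box match lie mostly below 45.7% GC, and the black lines give the median of the other tested genes in each GC bin, 0.36, 0.03, -0.17 and -0.27.

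Across the 258 Zfp genes with a known composition, Spearman's correlation of the log2 change with GC content was -0.668, and across all tested genes it was -0.319. Genes share the libraries and are not replicates, so these values are descriptions. KRAB genes had a median GC content of 41.3% and genes without a match 50.1%. Within each bin the medians of the 2 kinds of gene were closer than over all bins. In the poorest bin 56 of 93 KRAB genes and 20 of 38 genes without a match rose, with medians of 0.86 and 0.83. In the second bin 9 of 18 and 8 of 31 rose, with medians of 0.60 and 0.18, and in the third 5 of 9 and 1 of 24, with medians of 0.56 and 0.10. In the richest bin 0 of 5 and 2 of 39 rose, with medians of 0.06 and -0.01. The raised shares did not draw closer in the third bin.

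Transcript length moved with the change across all genes, with a Spearman correlation of 0.349, and hardly across the Zfp genes, where it was 0.09. With all tested genes in 4 bins by length, 6 of 30, 28 of 74, 35 of 85 and 32 of 69 Zfp genes rose from the shortest to the longest bin. The shares raised among all tested genes of these bins were 5.45, 11.4, 19.1 and 33.8%.

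A fit that removed the trend with GC content and length from each library (edgeR with offsets from splines) left 65 Zfp genes raised and 4 lowered, where 19.1% of all tested genes were raised and 12.6% lowered. Their median was 0.38, and that of all genes shifted by 0.12 to 0.09, so the distance between the medians was 0.29 in place of 0.60. Of the 101 genes, 52 were raised in that fit too. Spearman's correlation of the corrected change with length was -0.33 across the Zfp genes and -0.04 across all tested genes. With GC content it was -0.22 across the Zfp genes and -0.01 across all tested genes. Across all genes the raised share of the calls was 60.3% in that fit and 50.7% before the correction. With GC content alone corrected, 70 rose and 4 fell (20.4% and 13.1% of all tested genes), and the raised share of all calls was 60.9%. With length alone corrected, 90 rose and 6 fell (18.3% and 13.0% of all tested genes).

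The composition trend was present in the libraries themselves. For the other tested genes, the median deviation from the 8-library mean was higher in the GC-poorest than in the GC-richest bin by 0.46, 0.40, 0.13 and 0.23 (log2) in colchicine 1 to 4. In vehicle 1 to 4 this difference was -0.23, -0.64, -0.32 and -0.0032. Zfp genes of the poorest bin deviated by 0.54, 0.55, 0.25 and 0.35 in colchicine 1 to 4 and by -0.72, -0.76, -0.21 and -0.05 in vehicle 1 to 4. Among these Zfp values colchicine 1 and 2 stood highest and vehicle 1 and 2 lowest. The other genes of that bin were at -0.11 in vehicle 1 and -0.43 in vehicle 2. With length, the other genes' median deviation in the longest bin minus that in the shortest was 0.49, 0.34, 0.19 and 0.35 in colchicine 1 to 4. In vehicle 1 to 4 it was -0.81, -0.24, -0.099 and -0.19, with vehicle 1 the furthest from the rest. The part of library preparation in these values was not tested.

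**Figure D2:**
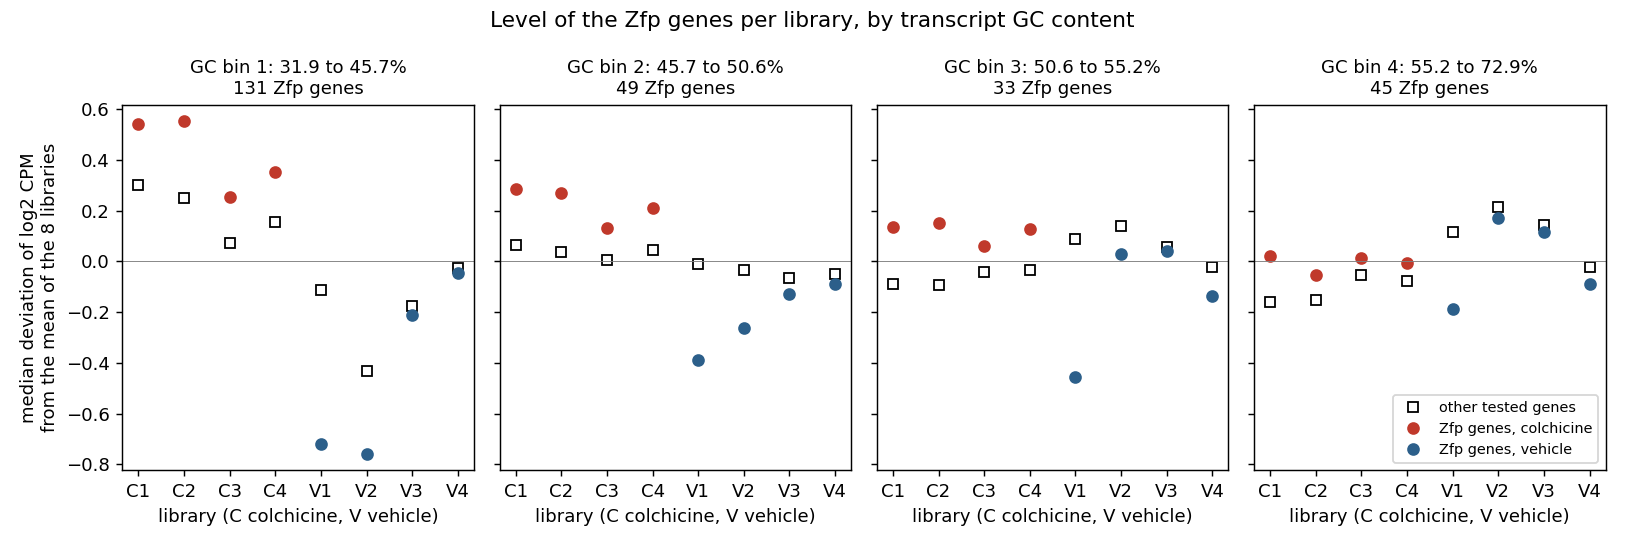
Median deviation of log2 CPM from the mean of the 8 libraries (vertical) in each library (horizontal, colchicine 1 to 4, then vehicle 1 to 4), for Zfp genes (filled points) and the other tested genes (open squares), in 4 bins of transcript GC content. In the poorest bin the Zfp genes range from 0.55 in colchicine 2 to -0.76 in vehicle 2. The other genes of that bin range from 0.30 in colchicine 1 to -0.43 in vehicle 2.

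KRAB genes with a described target in the mouse were among those raised. Zfp809, at chr9:22225714-22243354 (GRCm38, plus strand), recognises the primer binding site of murine leukaemia virus and recruits Trim28 to silence it. It had 43.5, 36.2, 27.2 and 33.01 CPM (counts per 1e6 scaled counts) in colchicine 1 to 4, against 9.62, 12.1, 13.7 and 20.5 CPM in vehicle 1 to 4. All 4 colchicine libraries lay above all 4 vehicle libraries. The log2 change was 1.32 ± 0.25 (SE, n = 4 each; edgeR adjusted p = 0.0072) and 1.53 after the correction for GC content and length. It passed the threshold with every library left out.

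Zfp568, at chr7:29983955-30028282 on the plus strand, represses a placental promoter of Igf2. It had 34.1, 46.9, 42.7 and 39.4 CPM in colchicine, against 15.2, 19.3, 29.4 and 29.0 CPM in vehicle. The groups did not overlap, and the log2 change was 0.81 ± 0.22 (edgeR adjusted p = 0.0246), with 0.87 after the correction. The call was lost without any 1 colchicine library, without vehicle 1 and without vehicle 2 (adjusted p up to 0.0976). Igf2 itself did not pass the threshold (0.26, edgeR adjusted p = 0.50).

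Zfp445, at chr9:122844529-122866006 on the minus strand, helps to keep imprints. It had 50.7, 45.7, 32.9 and 42.5 CPM in colchicine, against 14.98, 16.3, 28.1 and 33.4 CPM in vehicle. Colchicine 3 lay just below vehicle 4, so the groups overlapped. The log2 change of 0.89 ± 0.27 (edgeR adjusted p = 0.0342) was 0.43 with an adjusted p of 0.128 after the correction. The call was also lost without colchicine 1, 2 or 4 or vehicle 1, 2 or 3 (adjusted p up to 0.116).

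Of the 21 tested imprinted genes in a fixed list, 5 rose and 1 fell (17.4% and 17.0% of all tested genes did so). Sgce, a sarcoglycan, rose by 0.90 ± 0.12 (edgeR adjusted p = 0.0041), and Peg3, an imprinted zinc finger gene, by 1.12 ± 0.35 (adjusted p = 0.0371). The call of Peg3 was lost without any 1 colchicine library, without vehicle 2 and without vehicle 4 (adjusted p up to 0.107), and that of Sgce was not lost with any library left out. After the correction Peg3 was at 0.71 (adjusted p = 0.0924). Mest fell by 3.78 ± 0.93 (adjusted p = 0.0160, and 0.0504 without colchicine 1). It had 5.09, 4.995, 4.85 and 4.30 TPM in colchicine, against 10.1, 178, 30.0 and 5.14 TPM in vehicle.

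Other KRAB genes had larger changes. Zfp108, at chr7:24254794-24262445 on the plus strand, had 3.91, 4.82, 5.16 and 3.89 CPM in colchicine, against 0.808, 1.04, 1.79 and 1.60 CPM in vehicle. Even the lowest colchicine library was above the highest vehicle library, and the log2 change was 1.75 ± 0.30 (edgeR adjusted p = 0.0061), or 1.87 after the correction for GC content and length. Zfp763, on chromosome 17, had 7.59, 7.35, 5.44 and 5.98 CPM in colchicine, against 1.84, 1.98, 2.90 and 2.71 CPM in vehicle (log2 change 1.48 ± 0.24, adjusted p = 0.0055). Zfp267, on chromosome 3, changed by 1.33 ± 0.24 and Zfp933, on chromosome 4, by 1.25 ± 0.25, with adjusted p-values of 0.0070 and 0.0082. All 4 passed the threshold of 0.05 in each of the 24 alternative fits.

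The largest rise past the threshold belonged to Zfp268, at chr4:145585166-145625345 on the plus strand, with 16.4, 13.2, 8.83 and 10.9 CPM in colchicine, against 2.64, 3.40, 3.11 and 5.11 CPM in vehicle (log2 change 1.79 ± 0.28, edgeR adjusted p = 0.0049). Of its transcript's 31-base words, 78.3% also occurred in transcripts of other genes, so its reads could have been split between copies. The same holds for Zfp960 on chromosome 17, with 91.2% shared words and a log2 change of 1.47 ± 0.28 (adjusted p = 0.0075). Over the 46 members that shared more than 20% of their words, 19 rose and 1 fell, beside 82 raised and 6 lowered of the 212 others. Exons of 60 members were overlapped by a gene on the opposite strand, and whether counting used strand is not given in the sources used here. Of these 60, 13 rose and 5 fell (21.7% and 8.33%), and their median GC content was 51.2%. Of the 199 members without such an overlap, 88 rose and 2 fell (44.2% and 1.005%), with a median GC content of 43.6%. Of all tested genes 17.4% rose and 17.0% fell. Among the 60 are Zfp704, Zfp106, Zfp143, Zfp335, Zfp703, Zfp513, Zfp384, Zfp213, Zfp710 and Zfp593, all described here. Zfp108 and Zfp384 shared 22.7% and 25.1% of their words with other genes.

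**Figure D3:**
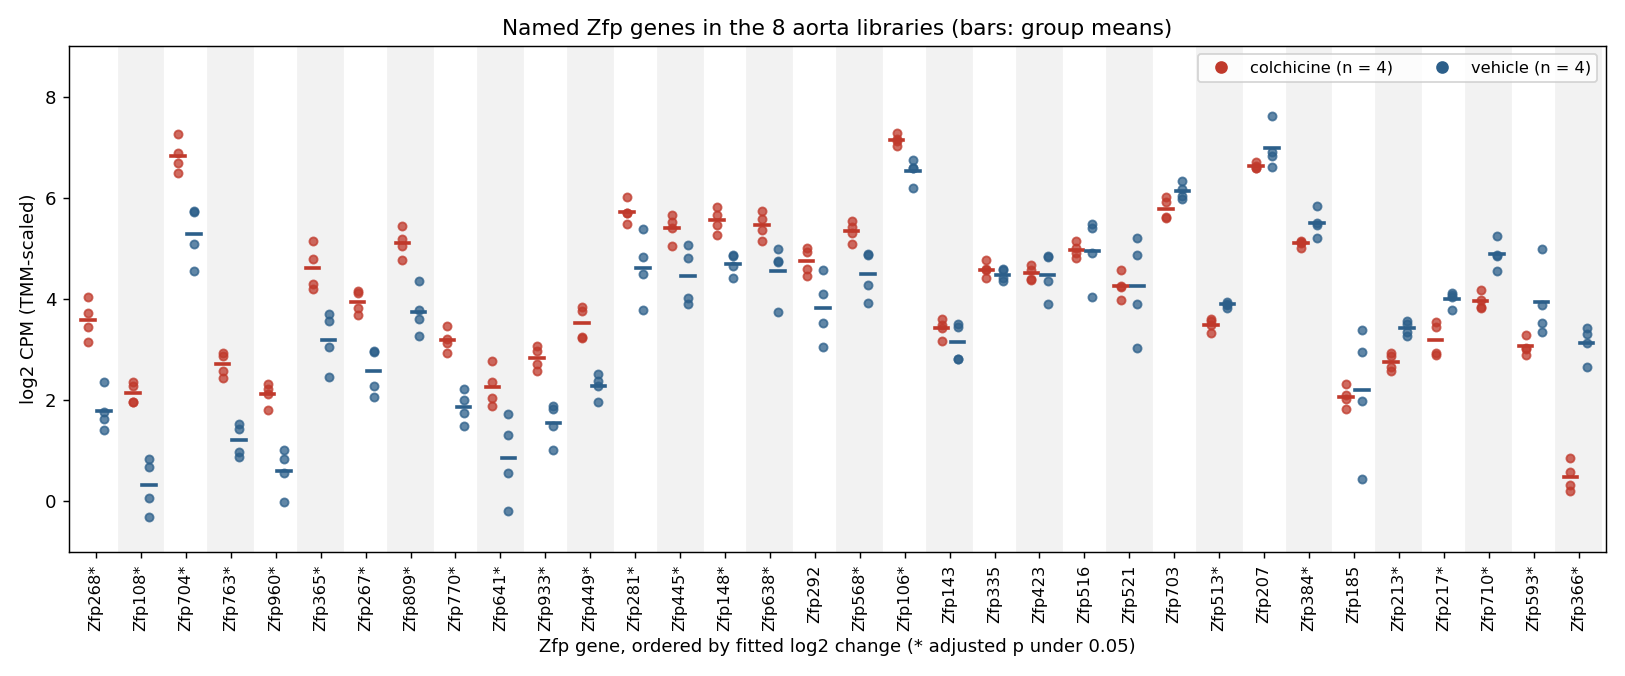
Log2 CPM (vertical) of the 34 named Zfp genes, ordered by fitted log2 change (horizontal), with 1 point per library, colchicine in red on the left and vehicle in blue on the right of each gene, and bars for the group means (n = 4 each). The 12 genes at the left end lie higher in all 4 colchicine libraries than in any vehicle library, and Zfp366 at the right end lies lower in all 4.

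Among genes without a KRAB match, Zfp704, at chr3:9427020-9610085 on the minus strand, had 153, 119, 90.1 and 103 CPM in colchicine, against 23.5, 33.9, 53.7 and 52.5 CPM in vehicle. The groups did not overlap, and the log2 change was 1.51 ± 0.28 (edgeR adjusted p = 0.0074). Zfp365, on chromosome 10, is best known as a protein of the centrosome and of developing neurons, and the search found no C2H2 finger in it. It had 35.2, 19.7, 18.4 and 27.6 CPM in colchicine, against 5.51, 8.24, 11.8 and 12.98 CPM in vehicle (log2 change 1.39 ± 0.31, adjusted p = 0.0115). Zfp770, on chromosome 2, rose by 1.31 ± 0.22 (adjusted p = 0.0060) and Zfp449, on the X chromosome, by 1.24 ± 0.22 (adjusted p = 0.0064). These 4 genes passed in each of the 24 alternative fits. Zfp641, on chromosome 15, rose by 1.27 ± 0.41 (adjusted p = 0.0406), a call that held without vehicle 4 and was lost without any other single library (adjusted p up to 0.132).

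Several genes without a KRAB match lost their call after the correction. Zfp148 (ZBP-89), a GC-box binding factor at chr16:33380836-33504363 on the plus strand, had 56.5, 50.4, 38.4 and 44.2 CPM in colchicine, against 25.1, 21.2, 29.4 and 28.9 CPM in vehicle. The groups were apart, and the log2 change of 0.86 ± 0.16 (edgeR adjusted p = 0.0075) passed with every library left out. After the correction for GC content and length it was 0.04 (adjusted p = 0.798). With GC content alone corrected it was 0.44 and still passed (edgeR adjusted p = 0.0186). With length alone corrected it was 0.34 and did not (adjusted p = 0.0798). Its transcript was 9830 bases long with a GC content of 39.9%. Across the Zfp genes the corrected changes ran lower in longer transcripts, as given above. The part of this in the lost calls here and below was not tested.

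Zfp281, which acts in pluripotent cells, had 64.6, 52.0, 52.2 and 44.9 CPM in colchicine, against 22.4, 13.8, 28.4 and 41.8 CPM in vehicle. It rose by 1.01 ± 0.30 (edgeR adjusted p = 0.0303), or 0.66 (adjusted p = 0.0644) after the correction. The call held without vehicle 2 or vehicle 4 and was lost without any other single library. Zfp638, a regulator of adipocyte differentiation and of silencing of retroviral DNA, rose by 0.85 ± 0.26 (adjusted p = 0.0320), or 0.28 (adjusted p = 0.245) after the correction. It was lost without colchicine 1, 2 or 4 or vehicle 1 or 3 (adjusted p up to 0.107). Zfp106, an RNA-binding protein needed by motor neurons and muscle, had 155, 144, 130 and 139 CPM in colchicine, against 96.6, 73.5, 96.0 and 108 CPM in vehicle. The change of 0.60 ± 0.15 (adjusted p = 0.0159) was 0.12 (adjusted p = 0.569) after the correction and 0.11 (adjusted p = 0.581) with length alone corrected, and the call was lost without colchicine 1, 2 or 4. With GC content alone corrected, Zfp281 (0.80, edgeR adjusted p = 0.0344), Zfp638 (0.53, adjusted p = 0.0368) and Zfp106 (0.56, adjusted p = 0.0140) still passed. With length alone corrected, Zfp281 (0.83, adjusted p = 0.0545) and Zfp638 (0.53, adjusted p = 0.130) did not. Zfp292 did not pass (0.84 ± 0.31, adjusted p = 0.0628), and passed with limma-voom, DESeq2, on log2(TPM + 1), without vehicle 4, and without vehicle 1 and 4 together.

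Zfp366 (DC-SCRIPT), a factor of dendritic cells at chr13:99184823-99250656 on the plus strand, had the largest fall. It had 1.25, 1.15, 1.4995 and 1.81 CPM in colchicine, against 10.8, 9.88, 6.32 and 8.80 CPM in vehicle. All vehicle libraries lay above all colchicine libraries, and the log2 change was -2.64 ± 0.26 (edgeR adjusted p = 0.0039), or -2.89 after the correction. It was the only member lowered in each of the 24 alternative fits. In the macrophage list 6 of 12 genes fell and 2 rose, as given above, where 17.0% of all tested genes fell and 17.4% rose. The part of myeloid cell content in the fall of Zfp366 was not tested.

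The other 6 falls were smaller. Zfp710, on chromosome 7, had 15.7, 14.3, 14.1 and 18.1 CPM in colchicine, against 28.8, 37.7, 23.6 and 29.3 CPM in vehicle, without overlap (log2 change -0.94 ± 0.17, edgeR adjusted p = 0.0066, and -0.99 after the correction). Zfp217, an oncogene in human breast cancer, had 10.8, 7.41, 7.61 and 11.6 CPM in colchicine, against 13.7, 16.9, 16.4 and 17.3 CPM in vehicle (-0.78 ± 0.19, adjusted p = 0.0164, lost without colchicine 2). Zfp213 changed by -0.66 ± 0.16 (adjusted p = 0.0169), a call also lost without colchicine 2. After the correction Zfp217 was at -0.88 and past the threshold, and Zfp213 at -0.38 (adjusted p = 0.0808) was not. On log2(TPM + 1), where haemoglobin takes part of the total in vehicle 1 and 4, these 3 changes were -0.49, -0.32 and -0.22 and did not pass.

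Zfp593 was at 31.9 CPM in vehicle 1 and at 7.46 to 14.7 CPM in the other 7 libraries. Its change of -1.02 ± 0.35 (edgeR adjusted p = 0.0490) was -0.37 (adjusted p = 0.115) without vehicle 1 and 4, and the call was lost without any 1 colchicine library and without vehicle 4. After the correction for GC content and length it was -0.59 (adjusted p = 0.186). Zfp384 (-0.42 ± 0.14, adjusted p = 0.0493) and Zfp513 (-0.40 ± 0.13, adjusted p = 0.0453) lay close to the threshold, and on log2(TPM + 1) their changes turned to 0.04 and 0.01. After the correction they were -0.16 (adjusted p = 0.413) and -0.08 (adjusted p = 0.624). The call of Zfp384 held without vehicle 1 or vehicle 3, and that of Zfp513 without vehicle 1, and both were lost without any other single library.

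Zfp207, which promotes spindle assembly, did not pass the threshold in mice given a microtubule inhibitor. It had 98.6, 105, 96.3 and 96.2 CPM in colchicine, against 195, 120, 98.0 and 113 CPM in vehicle. Vehicle 1 stood far above the rest and vehicle 3 lay within the colchicine range, and the log2 change was -0.41 ± 0.21 (edgeR adjusted p = 0.155). Its sign turned on log2(TPM + 1), to 0.07.

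Zfp423, Zfp516 and Zfp521, which promote or inhibit fat cell programmes, did not pass either with all 8 libraries, and their vehicle libraries scattered. Zfp423, a determinant of preadipocytes, had 21.1, 23.9, 20.7 and 25.4 CPM in colchicine, against 14.8, 28.6, 28.6 and 20.4 CPM in vehicle (log2 change -0.02 ± 0.22, edgeR adjusted p = 0.941). Zfp516, a driver of the brown fat programme, had 32.1, 35.2, 28.0 and 30.2 CPM in colchicine, against 16.4, 42.4, 44.4 and 29.8 CPM in vehicle (-0.08 ± 0.28, adjusted p = 0.823). Zfp521, an inhibitor of adipogenesis and of Ebf1, had 19.04, 18.7, 15.8 and 23.9 CPM in colchicine, against 14.8, 37.0, 29.1 and 8.18 CPM in vehicle (-0.21 ± 0.41, adjusted p = 0.708). For all 3 genes vehicle 2 and 3 were the highest 2 of the 8 libraries, and vehicle 1 and 4 lay within or below the range of the colchicine libraries. Their changes turned to 0.39, 0.36 and 0.34 on log2(TPM + 1), none past the threshold. Without vehicle 1 and 4, Zfp516 at -0.46 (edgeR adjusted p = 0.0232) and Zfp521 at -0.77 (adjusted p = 0.0172) passed as lowered.

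The remaining genes that were always to be named gave no call with all 8 libraries. Zfp143, a promoter-binding activator, changed by 0.25 ± 0.21 (edgeR adjusted p = 0.381), and Zfp335, a factor of neural progenitors, by 0.10 ± 0.13 (adjusted p = 0.550). Zfp703 changed by -0.34 ± 0.14 (adjusted p = 0.0953), and Zfp185, an actin-binding LIM protein without a C2H2 finger, by -0.48 ± 0.51 (adjusted p = 0.476). The last 2 turned to 0.11 and 0.07 on log2(TPM + 1). Each passed under 1 alternative: without vehicle 1 and 4 Zfp143 was at 0.62 (adjusted p = 0.0280) and Zfp185 at -1.10 (adjusted p = 0.0110), with GC content corrected Zfp335 was at 0.42 (adjusted p = 0.0208), and without vehicle 1 Zfp703 was at -0.48 (adjusted p = 0.0355).

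The corepressors on which KRAB proteins depend did not move as a block. Of 41 tested genes of the KRAB corepressor and heterochromatin list, 10 rose and 2 fell, where 17.4% and 17.0% of all tested genes did so, and their median log2 change was 0.09. Trim28, the KRAB-bound scaffold, had 107, 109, 114 and 106 CPM in colchicine, against 161, 161, 125 and 123 CPM in vehicle. Although the groups did not overlap, the change of -0.38 ± 0.14 did not pass (edgeR adjusted p = 0.0601), and it passed without vehicle 1, 3 or 4. It was -0.16 (adjusted p = 0.383) after the correction for GC content and length, and its sign turned on log2(TPM + 1), to 0.04. Setdb1 changed by 0.23 ± 0.12 (adjusted p = 0.161).

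Among the risers were Atrx, a chromatin remodeller of heterochromatin (1.15 ± 0.24, edgeR adjusted p = 0.0101), and Tasor, a subunit of the HUSH silencing complex (1.11 ± 0.20, adjusted p = 0.0067). After the correction for GC content and length these changes were 0.34 and 0.35, still past the threshold. The remodeller Chd3 rose by 1.05 ± 0.27 (adjusted p = 0.0176, lost without colchicine 1 or 2), and the DNA methyltransferase Dnmt3a by 0.96 ± 0.29 (adjusted p = 0.0345, lost without any 1 colchicine library or vehicle 2, and 0.73 with an adjusted p of 0.05001 after the correction). Uhrf1, which brings maintenance methylation to replicating DNA, fell by 1.57 ± 0.46 (adjusted p = 0.0287), with 3.91, 3.73, 9.11 and 10.4 CPM in colchicine, against 18.4, 33.9, 19.2 and 9.35 CPM in vehicle, where colchicine 4 lay above vehicle 4. That call was lost without colchicine 1 or 2 or vehicle 2 (adjusted p up to 0.0756). Mta2 of the NuRD complex fell by 0.46 ± 0.14 (adjusted p = 0.0329), a call lost without any 1 colchicine library or vehicle 2, and it was -0.21 (adjusted p = 0.205) after the correction and -0.03 on log2(TPM + 1). On log2(TPM + 1) none of the list fell. Without vehicle 1 and 4 the list had 16 genes raised and 4 lowered.

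Counts in other zinc finger families stand beside 17.4% of all tested genes raised and 17.0% lowered. The 242 other tested genes with the zf-C2H2 label had 86 raised and 10 lowered, with a median of 0.58. Zfp genes with 1 or 2 digits had 17 raised and 1 lowered of 48 (median 0.59), and Zfp genes with a letter suffix 12 raised and 1 lowered of 25 (median 0.86). In the Zbtb family 13 of 38 rose and none fell (median 0.29), and in the Zscan and Zkscan families 3 of 18 rose and none fell (median 0.37). Of the Zfp genes below 1 TPM, 21 were tested and 6 rose. No test compared the members with these families.

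Zfp genes were then placed on the genome. With starts at most 500 kb apart, 91 members fell into 11 clusters of at least 5, and 40 of them rose. Of the 168 members elsewhere 61 rose, and of all tested genes 17.4%, and no test compared clustered members with the others. On chromosome 17, the cluster at chr17:21008903-22867134 held 14 members, 13 of them with a KRAB box match. Of the 14, 9 rose, and all 14 estimates were positive, from 0.57 to 1.36. In the cluster at chr17:32765496-33631779, 5 of 9 rose, with a median of 0.93. In the cluster at chr13:67038596-67827002, 5 of 10 rose and the median was 1.03, and all 10 estimates were positive.

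Chromosome 7 held clusters that differed. At chr7:29816114-30169750, which contains Zfp568 and Zfp260, 7 of 9 members rose with a median of 0.79, and their median GC content was 48.0%. At chr7:24081924-24515682, which contains Zfp108, 4 of 7 rose with a median of 0.69. At chr7:127233061-127885996, 1 of 10 rose with a median of 0.13 and a median GC content of 53.8%. Of 19 tested genes there that are not zinc finger genes by name, 5 fell and none rose. Of all tested genes 17.0% fell and 17.4% rose. At chr7:4915217-5053723, 0 of 6 rose, and the median GC content was 61.2%. On chromosome 6, the cluster at chr6:47835661-48623227 had 1 of 8 raised, with a median GC content of 55.8%. The part of GC content in the differences between clusters was not tested.

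Promoters were searched for 8 motifs on both strands, in windows of 250 bases before to 50 after the annotated start (RefSeq, GRCm38.p6). A window was found for 212 members and for 10555 tested genes. The motif bound by Zfp143, ACTACA followed after any 2 bases by TCCC, was in 14.6% of the members' windows (31 of 212) and in 4.39% of those of tested genes. It was in 1.98% of all 27025 windows. Among members it was in 19 of the 87 raised genes (21.8%) and in 12 of the 125 others (9.60%). The match is a description of letters and not of binding.

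The windows below show the motif in 7 raised members from 4 clusters on chromosomes 4, 7 and 13, and in 2 members that did not pass, so that the shared core can be read beside the differing flanks. Each runs 5′ to 3′ on the strand of the motif, with the motif in capitals and 9 bases on either side.
Zfp273: cagagagaaACTACATTTCCCagaagtcta
Zfp759: ggggccgggACTACATTTCCCacaaatcaa
Zfp748: caacggaagACTACACTTCCCacaagtctg
Zfp108: ggctccagaACTACAATTCCCagaatgcct
Zfp940: aagtcttgaACTACATTTCCCaggagtcca
Zfp260: taactgtgaACTACATTTCCCagaagtctc
Zfp933: ttccaaagaACTACAATTCCCagcattcca
Zfp429: gcggtgcggACTACATCTCCCagaagtctg
Zfp692: ctaaggctaACTACAATTCCCggcaggctt
The window of Zfp273 lies at chr13:67813740-67813769 on the minus strand, that of Zfp759 at chr13:67128167-67128196 on the minus strand and that of Zfp748 at chr13:67553158-67553187 on the plus strand. Those of the chromosome 7 genes lie at chr7:24254717-24254746 on the minus strand (Zfp108, the nearer of a pair), chr7:29853665-29853694 on the plus strand (Zfp940) and chr7:30095038-30095067 on the minus strand (Zfp260). The window of Zfp933 lies at chr4:147848430-147848459 on the minus strand, that of Zfp429 at chr13:67399818-67399847 on the plus strand and that of Zfp692 at chr11:58307012-58307041 on the plus strand. Over the 30 members whose motif and flanks lay wholly before the start, the centre was 16 to 218 bases upstream, with a median of 58.

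Of the members shown, Zfp273 was at 3.85, 3.50, 2.72 and 4.17 CPM in colchicine, against 0.808, 0.549, 1.00 and 1.85 CPM in vehicle. The groups were apart, and the log2 change was 1.76 ± 0.38 (edgeR adjusted p = 0.0107). Zfp260 was at 66.9, 73.7, 59.6 and 55.3 CPM in colchicine, against 27.2, 30.8, 37.5 and 38.4 CPM in vehicle, also apart (0.93 ± 0.15, adjusted p = 0.0056). Zfp429, in the same cluster as Zfp273, was at 3.74, 3.33, 3.89 and 3.73 CPM in colchicine, against 3.60, 2.80, 3.00 and 3.94 CPM in vehicle, and did not pass (0.14 ± 0.21, adjusted p = 0.616). Zfp273, Zfp429 and the other genes met only here were picked after their values were seen.

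Members with the motif had 19 of 31 raised and none lowered, with a median log2 change of 0.77, and members without it had 68 of 181 raised and 5 lowered, with a median of 0.56. The other tested genes with the motif numbered 432, of which 18.3% rose and 9.95% fell (median 0.07). Without it, 16.9% of 9911 other genes rose and 17.5% fell (median -0.05). Of the 31 members with the motif, 8 lie in the chromosome 13 cluster and 7 in the chromosome 7 cluster of Zfp568.

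The other motifs were counted in the same way. The ETS motif CCGGAAG was in 20.8% of members' windows and 17.5% of those of tested genes, and the SP1 motif GGGCGG in 49.5% and 64.1%. The YY1 motif AAGATGGC was in 5.66% and 4.52%, the NRF1 motif (GCGCA followed by TGCGC) in 3.77% and 2.02%, and the cyclic AMP response element TGACGTCA in 2.83% and 3.11%. TATAAA was in 6.60% and 7.11%, and AGAACA, a short form of the glucocorticoid response element, in 17.5% and 12.1%. The median GC content of the windows was 54.8% in members and 60.7% in tested genes. None of the 8 motifs contains another, and no test was run on these shares.

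Across the alternatives the distance between the members' median and that of all genes stayed positive, from 0.29 with the correction for GC content and length to 0.69 without vehicle 4. On log2(TPM + 1), where the median of all genes was 0.35, a shift of 0.37, it was 0.39, and 90 Zfp genes rose and 1 fell, where 17.8% of all genes tested rose and 6.56% fell. The raised share of all calls was then 73.1%. Of the 101 raised genes, 77 were raised on that scale and 98 with limma-voom, which raised 18.3% of all tested genes. Of the 101, 18 were raised in each of the 24 alternative fits and 24 with each library left out.

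**Figure D4:**
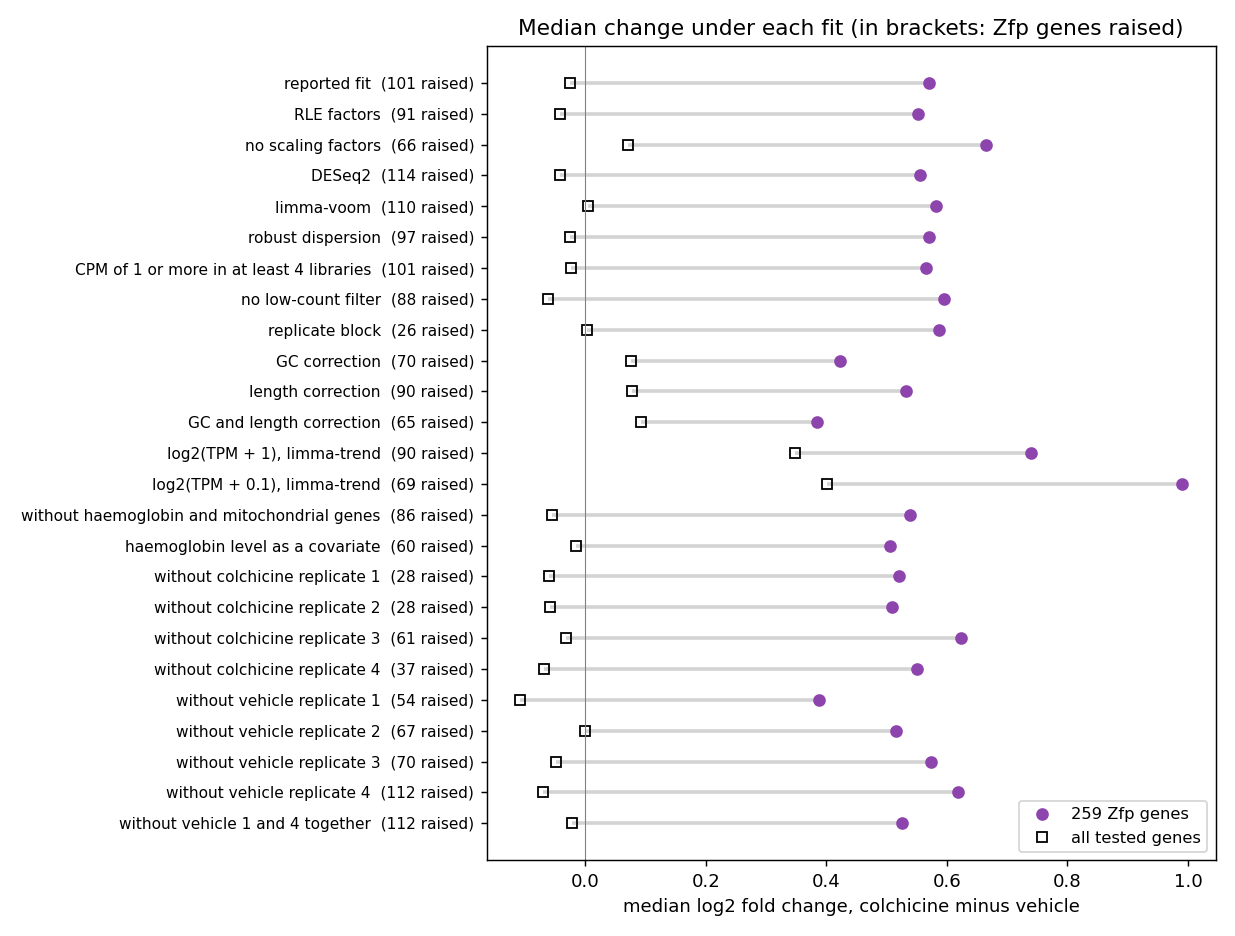
Median log2 fold change (colchicine minus vehicle, horizontal) of the 259 Zfp genes (filled circles) and of all tested genes (open squares) under the reported fit and each alternative (vertical), with the number of Zfp genes raised in brackets. The circles lie right of the squares in each row, closest with the correction for GC content and length (0.38 and 0.09).

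The 18 genes raised in every alternative fit included Zfp273, Zfp810, Zfp867, Zfp397, Zfp748, Zfp367 and Zfp260, beside 11 genes named above by rule. After the correction for GC content and length their log2 changes were 1.51, 1.03, 0.92, 0.58, 0.55, 0.98 and 0.60. Of these 7, Zfp810, Zfp867 and Zfp748 had a KRAB box match. In Zfp273, 40.3% of the 31-base words were shared with other genes, and in the other 6 at most 2.15%.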

How the data were processed

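RNA was measured in 8 libraries of mouse aorta, 4 colchicine and 4 vehicle, with columns matched to samples by name. The authors deposited estimated counts per gene (8.7% not whole) and TPM values, per the file headers. The build is mm10, per the submitters' processing notes. Which aligner, counting tool and annotation made them, and whether strand was used, is not given in the sources used here. Counts were rounded, and 30 genes without a symbol (5.94e-05% of counts) were left out. Genes were kept by filterByExpr, libraries scaled by TMM, and groups compared by edgeR 4.0.16 (R 4.3.3) quasi-likelihood tests, two-sided, with no covariate, adjusted by Benjamini-Hochberg over 13431 genes at a threshold of 0.05. Steps were tested on simulated data. SE is the absolute log2 change over the square root of F. A floor of 3 counts is 0.158 to 0.22 CPM per library and covers counting error only.

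GC content, length, positions and proteins came from GENCODE M21 (GRCm38), for 99.6% of identifiers, with splines of 5 degrees of freedom for the corrections. Alternatives used DESeq2 1.42.0, limma 3.58.1 (voom, and limma-trend on log2 TPM with a pseudocount), other scaling and filters, left-out libraries and a replicate block.

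Members, gene lists and alternatives were chosen with earlier results of these data known, so no count is independent support. Named were up to 12 rises and 8 falls (7 qualified) that passed, had groups apart and averaged 1 log2 CPM or more, 18 fixed genes, and up to 4 members of other lists. Genes named outside this rule are said to be so or were single checks. The broad KRAB pattern was added after the narrow one. Of 13 listed genes for zinc-finger partners, 3 rose and 3 fell, and of 13 mitochondrially encoded genes none passed (edgeR).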

Additional observations from a re-analysis of the deposited data

How the results depend on the processing

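The positive median of the Zfp genes held in all 24 alternatives, with counts that moved. Raised and lowered Zfp genes numbered 66 and 4 without scaling factors, 65 and 4 with GC content and length corrected, 60 and 4 with haemoglobin level as a covariate and 16 and 2 at a threshold of 0.01. The shares raised over all tested genes in these settings were 14.3, 19.1, 13.35 and 4.49%. Lowered Zfp genes numbered 4 with no low-count filter, 4 with GC content corrected, 1 on log2(TPM + 1), 1 on log2(TPM + 0.1) and 11 without vehicle 1 and 4. The median was 0.38 with GC content and length corrected, 0.74 on log2(TPM + 1) and 0.99 on log2(TPM + 0.1). In the corepressor list, 1 gene fell without scaling factors, 4 with DESeq2, 1 with GC content corrected and 0 with either TPM fit, 16 rose and 4 fell without vehicle 1 and 4, and 3 rose and 0 fell at 0.01. Over all genes 863 and 867 fell with the TPM fits, and 603 rose and 801 fell at 0.01. Of the 34 named genes 25 passed, 16 with GC content and length corrected and 13 at 0.01. With each library left out, all genes had 898 to 2420 raised and 1309 to 2644 lowered, the Zfp genes 28 to 112 and 2 to 8 with a median of 0.39 to 0.62, the corepressor list 4 to 10 and 0 to 5, and 14 to 22 named genes passed.

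With the replicate number as a block, 1121 genes rose and 1184 fell, 26 Zfp genes rose and 2 fell, 4 corepressor genes rose and 0 fell, and 15 named genes passed. Samples of the same number correlated at -0.112, -0.159, 0.032 and -0.247 in their deviations from the group means, and none correlated best with its own number. No pairing by number was seen, and a weak one could be missed by this check. Under the block Zfp423 was 0.021 and Zfp516 0.0045.

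Named genes whose sign turned had changes between -0.48 and 0.10, the called falls of Zfp384 and Zfp513 among them. Zfp423 was 0.042 without scaling factors, 0.0043 with limma-voom, 0.30 with GC content corrected, 0.056 with length too and 0.39 and 0.43 on log2(TPM + 1) and log2(TPM + 0.1). Zfp516 was 0.21 with GC content corrected and 0.36 and 0.44 on the TPM scales. With each library left out Zfp423 ran between -0.29 and 0.095 (0.025 without colchicine 3, 0.061 without vehicle 3), Zfp516 between -0.41 and 0.054 (0.048 without vehicle 3) and Zfp521 between -0.50 and 0.15. With length corrected Zfp335 was -0.033 and Zfp207 0.0085. On the TPM scales Zfp521 was 0.34 and 0.43, Zfp703 0.11 and 0.11, Zfp513 0.010 and 0.018, Zfp207 0.074 and 0.075, Zfp384 0.044 and 0.046 and Zfp185 0.070 and 0.25. The cause of these changes was not tested. Of the members, 10 had a library with under 10 counts, which limits their precision.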
